A study of Mus musculus with 83 samples.

Results

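Imprinted genes were followed through RNA polymerase II (Pol II) CUT&Tag libraries of mouse embryonic stem cells (mESCs) in which TATA-box binding protein (TBP) was depleted, heat shock (HS) or retinoic acid (RA) was applied, or the TBP paralog TRF2 was knocked out. The members were the rows named Peg10, Sgce, Peg3, H19, Igf2, Meg3, Snrpn, Kcnq1ot1, Plagl1 and Impact, that is 10 of the 27752 genes in the C64 count tables, all 10 of which were also rows of the B8 tables. The series holds 83 samples, of which 24 Pol II libraries in 12 groups of 2 had gene counts. All 24 come from cells whose TBP carries a homozygous mini-auxin-inducible degron (mAID) at its N-terminus. Indole-3-acetic acid (IAA) removes most of this protein, and the study describes the loss as incomplete. Per the study, these cells also carry a HaloTag on the largest Pol II subunit and a GFP tag on histone H3.3. Control cells received DMSO. The 16 C64 libraries were control, IAA (500 µM for 6 h), HS (42 °C for 30 min) and HS + IAA in run 2, and control, IAA (500 µM for 16 h), RA (16 h at 25 µM per the labels, where the study's methods give a lower concentration) and RA + IAA in run 3. The 8 B8 libraries were control and IAA (500 µM for 6 h) in runs 6 and 8, and B8 is 1 clone, made from C64 by knocking out Tbpl1, the gene of TRF2. No B8 library shares a run with a C64 library used here, so line and run cannot be told apart. The reads carry no parental assignment, and the values below sum the maternal and the paternal copy.

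Genomic imprinting leaves a gene active mainly on the copy from the mother or mainly on the copy from the father. The choice is carried by DNA methylation that is laid down at imprinting control regions in the germ line and protected after fertilization by factors such as the zinc finger protein ZFP57 and its partner TRIM28. Peg10, Sgce, Peg3, Snrpn, Kcnq1ot1, Plagl1, Impact and Igf2 are known as paternally expressed genes, and H19 and Meg3 as maternally expressed noncoding RNAs. Imprints, above all that of the Dlk1 and Meg3 domain, are known to differ between mESC lines and cultures.

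Libraries held 3854622 to 5056322 assigned reads in C64, 900651 to 1157308 in B8 run 6 and 2330887 to 2523832 in B8 run 8. Tbpl1 had 29 to 75 reads in the C64 libraries and 0 to 10 reads in the B8 libraries, or 6.23 to 16 against 0 to 4.37 CPM (reads of a gene scaled to the library's assigned reads after TMM adjustment over the 24 libraries), without overlap. Of 10 mESC markers 9, Pou5f1 and Nanog among them, had reads in every library, and Sox2, which has no base free of other annotated genes, had none. The degron acts on the protein, so the counts of Tbp itself (21.8 to 51.1 CPM over all libraries) do not check it. Of 10 markers of differentiated cells 9 also had reads in every library, so reads over a gene body alone do not mark an active gene. The summed level of the mESC markers was 355 to 1430 CPM in C64 and 657 to 1540 CPM in B8. That of the markers of differentiated cells was 236 to 462 and 209 to 345 CPM. Most of the mESC sum came from Esrrb, with a median of 742 CPM in C64, where the sum had a median of 979 CPM. In B8 these medians were 757 and 950 CPM. Gata4, a marker of differentiated cells, had medians of 134 CPM in C64 and 112 CPM in B8. The mESC marker next to Esrrb, Sall4, had 75.1 and 71.2 CPM. The sums therefore do not by themselves show cell identity.

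Promoter sequence was at hand for 6 of the 10 members in the RefSeq promoter table (Peg3, Igf2, Meg3, Snrpn, Kcnq1ot1 and Plagl1), and not for Peg10, Sgce, H19 and Impact. The windows below are the 250 bases before a start site, printed 5′ to 3′ on the strand of the gene (build GRCm38.p6). They are shown because Plagl1 and Meg3 carried the differences with heat shock and between libraries, and Peg3 is set beside them as a member that passed no test. The Plagl1 start lies within the annotated gene. Capitals mark a match to TATAAA (the core of a TATA box), TGCCGC (the hexamer bound by ZFP57), GAANNTTC (the core of a heat shock element) or AGGTCA (a half-site of nuclear receptors such as those for retinoic acid) on either strand.
Plagl1, chr10:13090582-13090831, + strand: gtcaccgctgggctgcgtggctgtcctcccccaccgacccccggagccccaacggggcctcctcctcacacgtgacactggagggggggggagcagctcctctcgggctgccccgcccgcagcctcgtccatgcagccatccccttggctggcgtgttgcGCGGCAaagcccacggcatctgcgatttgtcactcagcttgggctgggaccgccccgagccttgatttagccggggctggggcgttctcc
Meg3, chr12:109540746-109540995, + strand: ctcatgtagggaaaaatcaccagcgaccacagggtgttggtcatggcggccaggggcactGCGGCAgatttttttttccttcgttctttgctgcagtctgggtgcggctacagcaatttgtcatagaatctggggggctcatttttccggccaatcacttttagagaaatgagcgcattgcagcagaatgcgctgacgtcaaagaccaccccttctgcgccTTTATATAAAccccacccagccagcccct
Peg3, chr7:6730420-6730669, - strand: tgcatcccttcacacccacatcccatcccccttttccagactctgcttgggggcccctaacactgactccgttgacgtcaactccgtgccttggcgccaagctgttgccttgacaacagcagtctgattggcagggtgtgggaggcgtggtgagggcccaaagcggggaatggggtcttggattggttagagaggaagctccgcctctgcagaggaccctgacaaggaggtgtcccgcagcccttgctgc
The Plagl1 window held 1 match, to the ZFP57 hexamer on the opposite strand. The Meg3 window held a ZFP57 hexamer on the opposite strand and a pair of overlapping TATAAA matches, 1 on each strand, that begin 29 bases before the start. The Peg3 window held none of the 4. Of all 32851 promoter windows of the table, 12.4% held TATAAA, 8.68% TGCCGC, 6.69% GAANNTTC and 14% AGGTCA.

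The deposited list of TATA genes named 4 members, Peg10, Igf2, Snrpn and Plagl1, and the list of TATA-less genes the other 6, against 18.6% of the C64 table genes on the TATA list. The printed windows do not sort in the same way, since the Meg3 window holds TATAAA and Meg3 is on the TATA-less list, while the 1 Plagl1 window holds none and Plagl1 is on the TATA list.

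How much of a member could be counted at all differed between members. Reads were assigned to whole genes without regard to strand, and a read over more than 1 gene was left out. Kcnq1ot1 (chr7:143203458-143296549, - strand) lies within Kcnq1 and had 0 of its 93092 bases to itself. Igf2 (chr7:142650766-142666816, - strand), which encodes a fetal growth factor, had 3 of 16051 bases to itself, since the gene model Gm49394 shares 16048 of them and the antisense gene Igf2os 7124. Both had 0 reads in all 24 libraries. The same held for 3464 (99.6%) of the 3479 single-interval genes with no base of their own, against 287 (1.19%) of the 24214 genes with at least 1. A count of 0 for Igf2 and Kcnq1ot1 therefore sets no limit on their Pol II signal, and neither gene was tested. Of Snrpn, 84.8% of the bases counted, and of the remaining members at least 91.4%.

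H19 (chr7:142575529-142578143), a noncoding RNA gene of 2615 bases, had 2390 bases of its own and still only 0 to 9 reads, or 0 to 2.78 CPM. In 3 libraries it had 0 reads, which allows at most 0.639 CPM in 1 HS library, 0.703 CPM in 1 C64 library with 16 h of IAA and 2.47 CPM in 1 B8 IAA library of run 6 (3 reads, counting error only). It did not pass the filter on low counts in any comparison. The 7 other members passed it in every comparison, and 7 of the 10 is the number tested throughout.

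Per kilobase of countable sequence, Impact (chr18:12955852-12992950), which encodes an inhibitor of the GCN2 pathway that slows translation under stress, had the highest Pol II level, with a median over 24 libraries of 5.52 CPM per kb (range 3.41 to 7.18). Peg3 (chr7:6703892-6730431), a zinc finger protein gene, followed at 2.26 CPM per kb (1.48 to 3.76) and Peg10 (chr6:4747306-4760517), a retrotransposon-derived gene needed for the placenta, at 1.23 CPM per kb (0.554 to 2.98). Meg3 (chr12:109541001-109571726), Sgce (chr6:4674350-4747207), the gene of epsilon-sarcoglycan, and Plagl1 (chr10:13060504-13131694), a zinc finger transcription factor gene, had medians of 0.419, 0.417 and 0.391 CPM per kb, and their ranges overlapped. H19 had 0.224 and Snrpn (chr7:59982495-60140219), the gene of a spliceosomal protein, 0.17 CPM per kb, and these overlapped with each other and with Sgce. The ranges of all neighbours in this order overlapped, also those of Impact and Peg3. These levels do not by themselves show that a gene is active. Gata4, a marker of differentiated cells, had 11530 reads on 72771 own bases over the 24 libraries. Sgce had 2719 reads on 72858 bases and Plagl1 2930 on 70954. The other counted markers of differentiated cells also had more reads per base than these 2 members.

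**Figure D1:**
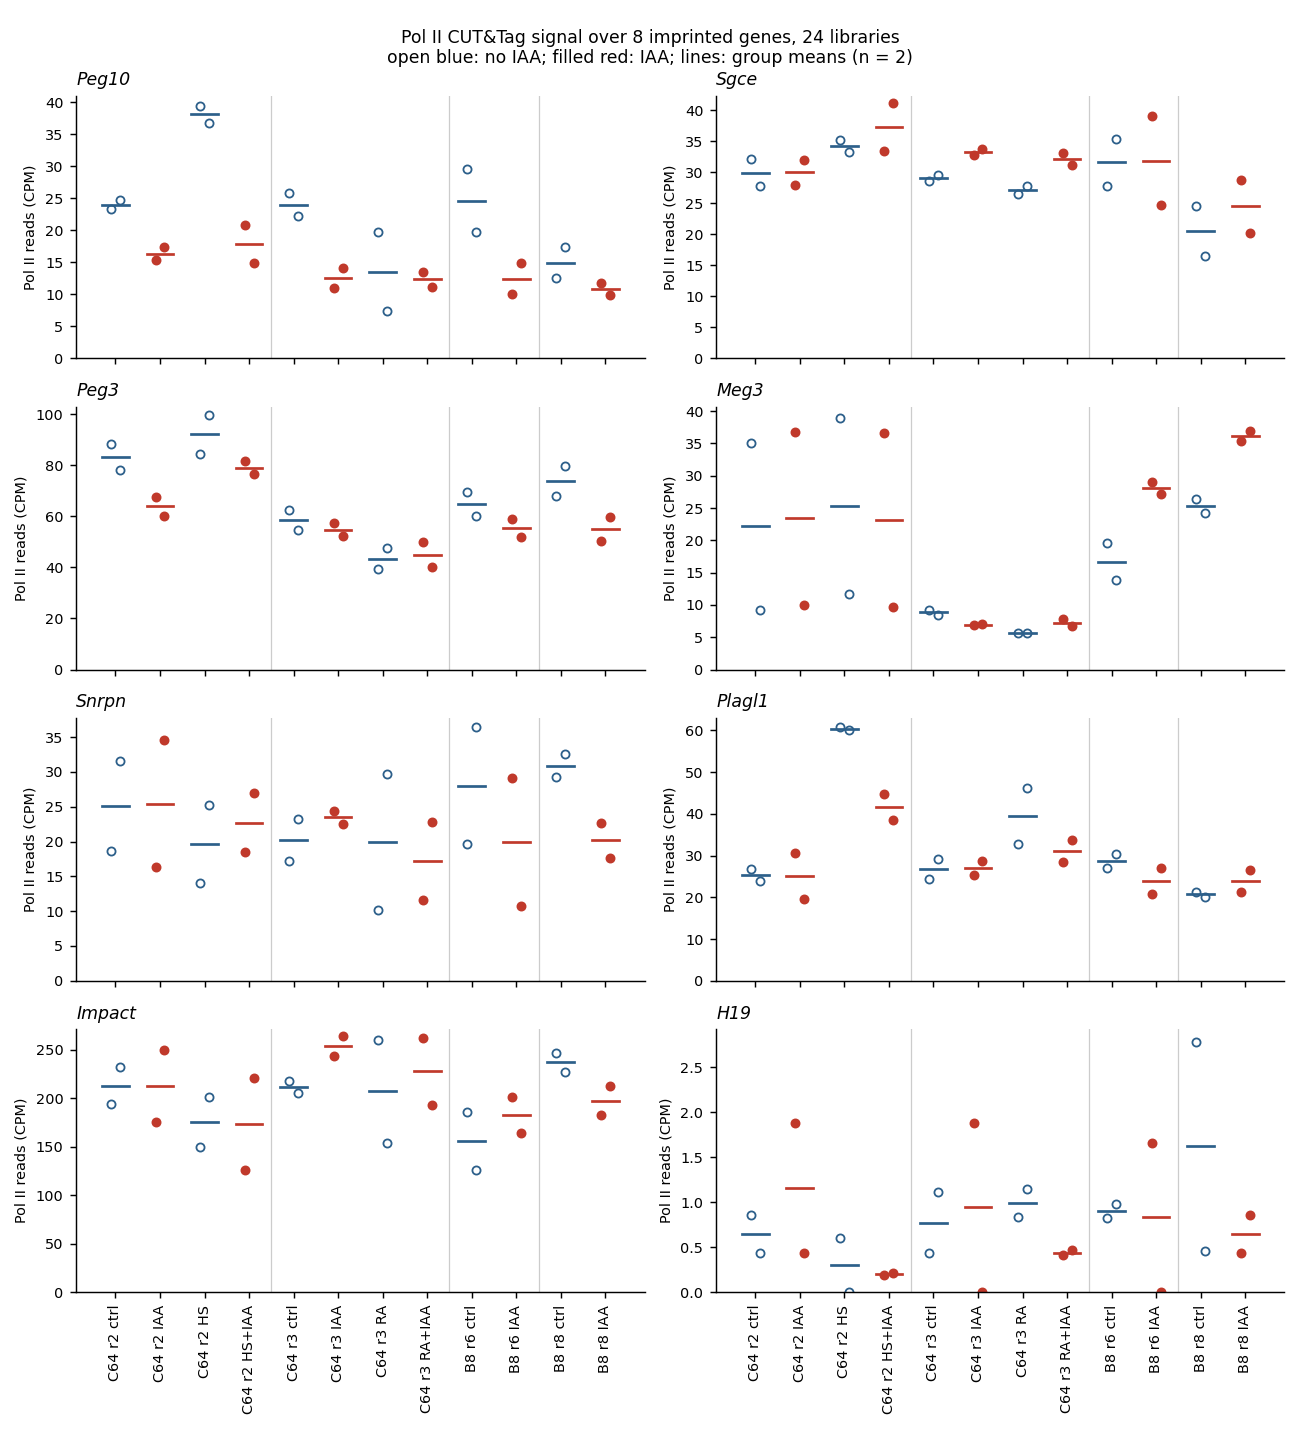
Pol II CPM (y axis, linear, from 0) of 8 imprinted genes in each of 24 libraries, ordered along the x axis by line, run (r) and condition (ctrl, control; HS, heat shock; RA, retinoic acid); open blue points are libraries without IAA, filled red points those with IAA, and lines are means of 2. Peg10 lies lower with IAA without overlap in 5 of 6 contexts, Plagl1 is highest in HS at 60 and 60.9 CPM, and Meg3 falls into a high and a low library in each group of run 2.

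Peg10 was the 1 member called with TBP depletion over all contexts. In run 2 its level was 23.3 and 24.7 CPM in control and 15.3 and 17.4 CPM after 6 h of IAA. Under HS it was 39.4 and 36.8 CPM, and 20.8 and 14.8 CPM in HS + IAA. In run 3 it was 25.8 and 22.2 CPM in control and 11 and 14.1 CPM after 16 h of IAA. In each of these 3 contexts both IAA libraries lay below both libraries without IAA.

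In RA the Peg10 libraries themselves split, at 19.7 and 7.32 CPM, and RA + IAA lay between them at 13.5 and 11.2 CPM. In B8 run 6 the control libraries had 29.5 and 19.7 CPM and the IAA libraries 9.97 and 14.8 CPM. In B8 run 8 these were 12.5 and 17.4 CPM against 11.8 and 9.88 CPM. Both B8 runs showed no overlap, though on only 12 to 38 reads a library.

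Over all 24 libraries, with the 6 contexts as a block, Peg10 fell by 0.71 ± 0.14 (log2, SE, 12 IAA against 12 without), a fold of 0.61 (edgeR quasi-likelihood test, adjusted p = 0.00701). It was the 1 member called among 7 tested, against 0.806% of the 17873 genes called either way and 0.733% called lower, and it ranked 69th by p. Its mean was lower with IAA in 6 of 6 contexts, which held for 4.89% of genes, and all IAA libraries lay below all others in 5 of 6, which held for 0.543%. The call held without each of the 24 libraries in turn (log2 change -0.80 to -0.65). In these bulk libraries less Pol II in each cell and fewer cells with Pol II on the gene cannot be told apart.

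Within single contexts Peg10 did not pass the test when fitted without a block for replicate number or set. The log2 changes were -0.55 ± 0.22 after 6 h in C64, -1.08 ± 0.29 in HS, -0.92 ± 0.27 after 16 h, -0.11 ± 0.48 in RA and -0.72 ± 0.27 in B8, with edgeR adjusted p from 0.13 to 1. With replicate number as a block, which the run 3 libraries shared more than the groups explain, the 16 h change was called (-0.93 ± 0.25, edgeR adjusted p = 0.0163), as were 2.16% of genes in that fit. With the 2 sets that the column names of run 2 form as a block, the change within HS was called (-1.09 ± 0.22, edgeR adjusted p = 0.000332), as were 0.65% of genes. These fits use the libraries of the all-context fit and are not independent of it. Without a block for replicate number or set, no member was called in any of the 5 single-context comparisons, against 0.0433% of genes after 6 h and 0% after 16 h in C64, 0% within HS, 0% within RA and 6.23% in B8 (2.62% higher and 3.61% lower). Where edgeR called no gene, 319 after 16 h, 160 within HS and 104 within RA had an unadjusted p under 0.05, and the likelihood-ratio test and DESeq2 called 2 and 4 after 16 h and 0 in the other two.

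**Figure D2:**
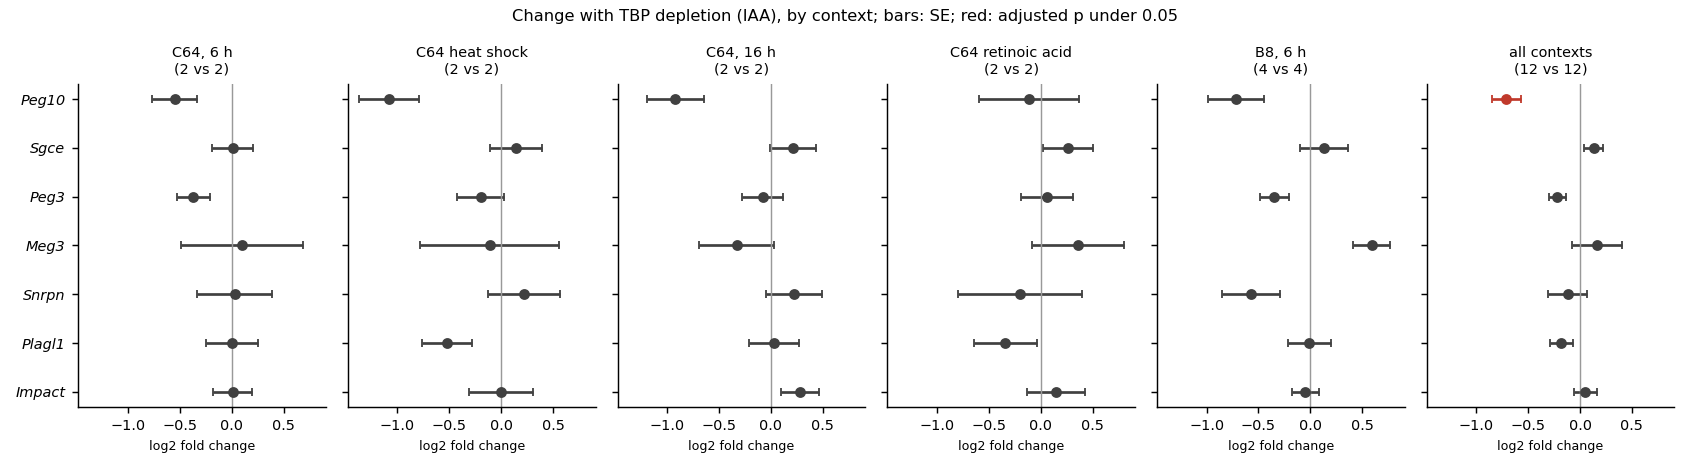
Log2 fold change with IAA (x axis) of the 7 tested members (y axis) in 5 contexts and over all of them; points are estimates, bars are SE, and red marks an adjusted p under 0.05. Peg10 is below 0 in all panels and is red over all contexts at -0.71, while Sgce is above 0 in all panels.

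Sgce, which starts 98 bases away from Peg10 and is read in the opposite direction, was not called. Its level ranged from 16.5 to 41.1 CPM, and IAA and other libraries overlapped in 4 of 6 contexts and lay higher with IAA in the other 2. The fitted change over all contexts was 0.13 ± 0.09 (95% interval -0.05 to 0.32, edgeR adjusted p = 0.701). Reads of Peg10 per read of Sgce set the neighbours side by side without any scaling of libraries. This ratio was 0.727 and 0.891 in the run 2 controls and 0.545 and 0.544 with IAA, 1.12 and 1.11 in HS and 0.623 and 0.361 in HS + IAA, and 0.902 and 0.752 in the run 3 controls and 0.338 and 0.417 after 16 h of IAA. In RA it was 0.746 and 0.264, against 0.407 and 0.358 in RA + IAA. In B8 it was 0.509 to 1.06 in the 4 controls and 0.255 to 0.6 in the 4 IAA libraries. On average over contexts the ratio changed by -0.80 on the log2 scale, a fold of 0.58. Without B8 it was -0.78 and without the RA context -0.91. This ratio was chosen after the values of both genes had been seen, so it is a description with no test.

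**Figure D3:**
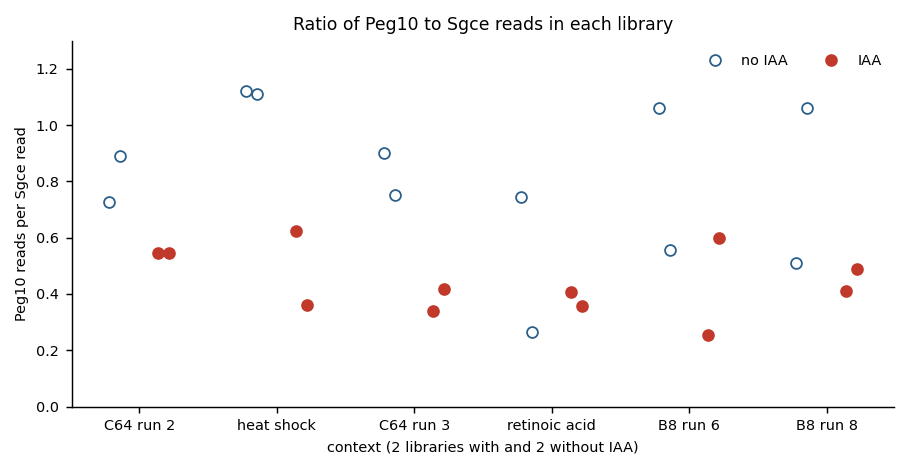
Peg10 reads per Sgce read (y axis, linear) in each of 24 libraries by context (x axis), open blue without and filled red with IAA. Both IAA libraries lie below both others in C64 run 2, heat shock, C64 run 3 and B8 run 8, and the groups overlap in retinoic acid and in B8 run 6.

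On its other side Peg10 is followed by Ppp1r9a, the gene of the actin-binding protein neurabin, 142399 bases away. Ppp1r9a was called lower with IAA over all contexts (log2 -0.44 ± 0.10, edgeR adjusted p = 0.0244), and Casd1, beyond Sgce, was at 0.07 ± 0.12. The genes whose log2 CPM over 24 libraries was most like that of Peg10 were Map1b (Pearson r = 0.76), 4930509G22Rik (0.75) and Fscn1 (0.75), none of them on chromosome 6. Correlations of this kind share library, depth and run.

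The other members had smaller fitted changes with IAA. Peg3 lay lower in 5 of 6 contexts by its mean (16.7% of genes did so in 5 or 6) and without overlap in 4 (2.09% of genes in 4 or more), with 88.1 and 78.2 CPM in run 2 control against 67.7 and 60.1 CPM with IAA. Its fitted change of -0.22 ± 0.08 did not pass the test (edgeR adjusted p = 0.25). Usp29, which begins 146 bases from Peg3 on the other strand, was at 0.02 ± 0.11. Plagl1 was at -0.18 ± 0.11, Snrpn at -0.12 ± 0.19, Meg3 at 0.16 ± 0.24 and Impact at 0.05 ± 0.11, none of them past the test. The members' median change was -0.12, beside -0.00 over all genes.

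Of 59 other genes of imprinted domains found in the tables, 48 were tested over all contexts, and 2 were called, both lower: Ppp1r9a and Cd81, a tetraspanin gene of the Kcnq1 domain (-0.64 ± 0.10, edgeR adjusted p = 0.000404). The median over the 48 was -0.00. A list of 20 factors held genes whose products set or keep imprints and also the Tet genes, whose enzymes oxidize methylated cytosine. Of these, 20 were tested and 1 was called, Tet2, which fell by 0.52 ± 0.09 (edgeR adjusted p = 0.00143). Zfp57 and Trim28 were not called. Over all genes 0.806% were called either way and 0.733% lower.

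Plagl1 was the 1 member called with heat shock. Its level was 26.7 and 23.9 CPM in control and 60.9 and 60 CPM in HS, on 125 and 111 reads against 303 and 282. The log2 change was 1.29 ± 0.24, a fold of 2.45 (edgeR adjusted p = 0.00841), where 3.02% of 16332 genes were called, 1.57% higher and 1.46% lower. Plagl1 ranked 120th by p. With only 1 control library left, the change was 1.36 without control a and 1.21 without control b and the adjusted p rose to 0.0679 and 0.0994, so the call needed both controls.

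With TBP depleted, Plagl1 was at 30.7 and 19.5 CPM in IAA and at 44.8 and 38.5 CPM in HS + IAA, again without overlap. This change of 0.74 ± 0.26 did not pass the test (edgeR adjusted p = 0.172), where 1.4% of genes were called either way. With the run 2 set as a block it was 0.76 ± 0.25 and was called (edgeR adjusted p = 0.0276), as were 9.76% of genes. Between HS + IAA and HS it was -0.52 ± 0.24 (edgeR adjusted p = 1), with both HS + IAA libraries below both HS libraries. The comparisons with HS share libraries. A call in 1 contrast and not in the other does not show that they differ, and the difference between the responses was not tested.

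The genes most like Plagl1 over the 24 libraries were Ypel2 (r = 0.85), Bag3 (0.85), a cochaperone gene of the heat shock response, and Rgcc (0.84). Its tested neighbours with a value in HS, Stx11, Zc2hc1b and Ltv1, were at 0.22 ± 0.37, 0.64 ± 0.38 and 0.54 ± 0.35 with HS, none past the test. The window printed above for Plagl1 held no match to the heat shock element core, which says only that these letters are not in it.

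Peg10 also stood higher in HS, at 36.8 and 39.4 CPM against 23.3 and 24.7 CPM, without overlap and with a log2 change of 0.70 ± 0.26 that did not pass (edgeR adjusted p = 0.178). In HS + IAA against IAA the value was 0.14 ± 0.29. The remaining members were at -0.33 to 0.24 with HS, and none passed. The members' median change with HS was 0.23, against 0.03 over all genes.

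Among the 45 other genes of imprinted domains tested with HS 1 was called, Zdbf2, a gene imprinted in the early embryo, which fell by 1.33 ± 0.25 (edgeR adjusted p = 0.00831). Among the 20 factors 1 was called, Ctcf, whose protein binds the control region between H19 and Igf2, with a fall of 1.20 ± 0.24 (edgeR adjusted p = 0.0125). With HS 3.02% of all genes were called, and 1.46% were called lower. In HS + IAA against IAA no gene of these lists was called, of 46 and 20 tested, against 1.4% of all genes.

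In RA no member was called, against 0.0183% of 16350 genes. Plagl1 was at 32.7 and 46.2 CPM in RA and 24.3 and 29.3 CPM in control, without overlap (log2 0.57 ± 0.28, edgeR adjusted p = 0.863), and Peg10 at 19.7 and 7.32 against 25.8 and 22.2 CPM (-0.82 ± 0.42, edgeR adjusted p = 0.874). Leaving out RA library a or b moved Peg10 to -1.69 or -0.31 and Plagl1 to 0.81 or 0.26, with no call. With replicate number as a block 11.4% of genes were called and both were among them, Plagl1 at 0.56 ± 0.19 (edgeR adjusted p = 0.0389) and Peg10 at -0.89 ± 0.25 (edgeR adjusted p = 0.00742). The other members lay between -0.63 ± 0.39 for Meg3 and -0.01 ± 0.50 for Snrpn. In RA + IAA against IAA the Plagl1 change was 0.21 ± 0.27 and that of Peg10 -0.02 ± 0.35, and no member was called, against 0% of genes by edgeR (629 at an unadjusted p under 0.05, 72 called by the likelihood-ratio test and 67 by DESeq2). The mESC markers had a median change of -0.68 over the 8 tested in RA, with none called, and their part in the members' values was not tested.

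**Figure D4:**
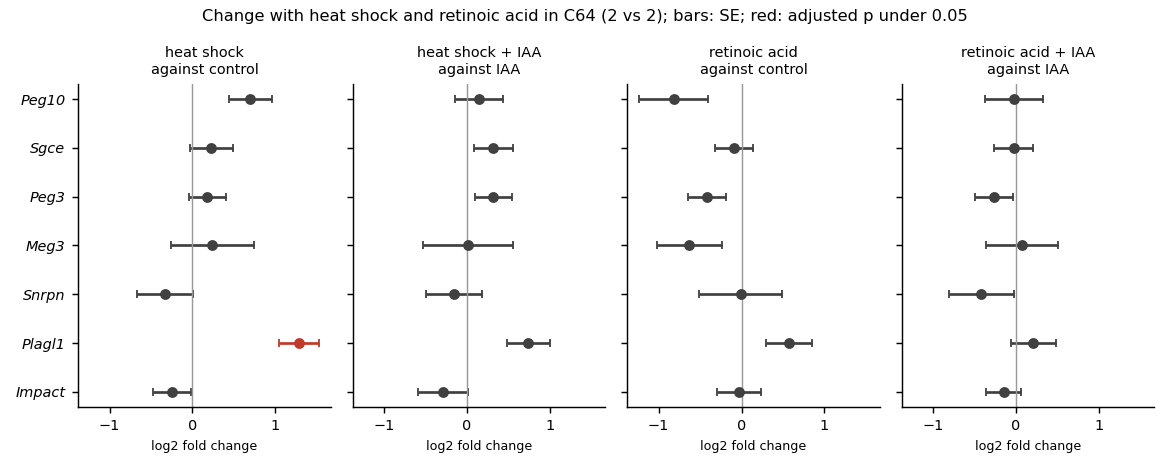
Log2 fold change (x axis) of the 7 tested members (y axis) with heat shock and with retinoic acid, each without and with IAA, 2 libraries against 2; bars are SE and red marks an adjusted p under 0.05. Plagl1 with heat shock, at 1.29, is the single red point.

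Between the lines, no member was called in the controls, where 0% of 14622 genes were (4 B8 libraries against 2 of C64 run 2, edgeR quasi-likelihood test). In that comparison 863 genes had an unadjusted p under 0.05, and the likelihood-ratio test called 21 and DESeq2 15. The largest member differences were 0.28 ± 0.31 for Snrpn and -0.27 ± 0.33 for Peg10. The 95% intervals were -0.91 to 0.38 for Peg10, -0.60 to 0.18 for Peg3, -0.53 to 0.52 for Plagl1 and -0.87 to 0.88 for Meg3, so the fits leave room for differences of either sign. The Meg3 value rested on single C64 libraries, which had 35.1 and 9.24 CPM, and went from -0.66 without the lower to 1.23 without the higher. The B8 controls of run 8 and run 6 themselves differed in 14.5% of 13039 genes, and there Peg10 lay at -0.87 ± 0.34, Sgce at -0.78 ± 0.32, Plagl1 at -0.62 ± 0.28 and Impact at 0.45 ± 0.18, none past the test. The C64 controls of runs 3 and 2 differed in 0% of 16263 genes by the same test (1198 at an unadjusted p under 0.05, 18 called by the likelihood-ratio test and 3 by DESeq2), with Meg3 at -1.30 ± 0.45 and Peg3 at -0.49 ± 0.21.

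With IAA in both lines, 3.44% of 14583 genes were called (2.38% lower in B8) and no member was, with Meg3 at 0.49 ± 0.36 and Peg10 at -0.49 ± 0.29. Meg3 went from -0.15 without the lower of the C64 IAA libraries (9.98 CPM) to 1.72 without the higher (36.8 CPM), where it was called (edgeR adjusted p = 0.0448). Of 40 other domain genes 4 were called, all lower in B8: Ppp1r9a (-1.08 ± 0.19), Grb10, the gene of an adaptor that restrains growth signalling (-0.98 ± 0.22), Sfmbt2 (-0.70 ± 0.16) and Zdbf2 (-0.80 ± 0.19). Of 19 factors 4 were called lower, Tet1 (-1.08 ± 0.22), Ctcf (-0.68 ± 0.15), Suz12 (-0.79 ± 0.18) and Tet2 (-0.64 ± 0.16). Several of these genes also differed between the B8 controls of run 8 and run 6, where 14.5% of genes were called. There 8 of 19 factors were called higher and 0 lower, among them Tet1 (1.41 ± 0.19), Tet2 (0.94 ± 0.16) and Ctcf (0.80 ± 0.19). Of 36 other domain genes 2 were higher there, 1 of them Zdbf2 (1.14 ± 0.21), and 2 lower. Line and run cannot be told apart in these values. The IAA effect in B8 minus that in C64 was called for no member, against 0.0913% of 15338 genes, and ranged from -0.59 ± 0.47 for Snrpn to 0.50 ± 0.59 for Meg3. For Peg10 this difference was -0.16 ± 0.37.

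Among the tested members Meg3 had the widest range relative to its lowest value (5.66 to 39 CPM). It lay at 5.66 to 9.24 CPM in run 3 and at 13.8 to 37 CPM in B8, and split between libraries of the same group in run 2. Its column values in run 2 fell into the sets that the column names form, 1 library of each group having a 2 in its name (set A) and the other not (set B). In set A Meg3 had 35.1 CPM in control, 36.8 in IAA, 39 in HS and 36.6 in HS + IAA. In set B it had 9.24, 9.98, 11.7 and 9.74 CPM in the same order. Within a set the 4 conditions were close, and the labels do not say what the sets are. Leaving out 1 library turned the sign of the Meg3 change in run 2 comparisons, which went from -1.13 to 1.34 after 6 h of IAA and from -0.90 to 1.49 with HS. With HS it was called when the set B HS library was left out.

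Between the sets, with condition as a block, Meg3 was 1.88 ± 0.17 higher on the log2 scale in set A, a fold of 3.68 (4 libraries against 4). This comparison was added after the Meg3 values had been seen, so its value there is a description with no test, and p-values of other genes in it are not independent of that choice. In it, 5.83% of 16239 genes were called, 2% higher and 3.84% lower. Meg3 was among the 3.78% of genes whose 4 set A libraries all lay above the 4 of set B. In run 3 the Meg3 level was 5.66 to 9.24 CPM, like set B or below it, and replicates 1 and 2 did not split (0.03 ± 0.27).

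The neighbours of Meg3 on chromosome 12 showed the same split. Rian, the host of a cluster of small nucleolar RNAs, was 2.06 ± 0.16 higher in set A (47.7 to 101 CPM against 15 to 18.2 CPM), and Mirg, the host of a microRNA cluster, was 1.84 ± 0.21 higher (16.9 to 35.9 against 5.93 to 10.3 CPM). Rtl1, a retrotransposon-derived gene with an antisense transcript from which the unstranded counts cannot separate it, was 1.71 ± 0.32 higher (9.65 to 34.3 against 3.83 to 6.99 CPM). All 3 passed the test (edgeR adjusted p = 3.84e-06, 0.000105 and 0.00464), with p-values that are not independent of the choice of the comparison. At the ends of the domain Dlk1, which encodes a membrane ligand and is expressed from the paternal copy, was at 0.83 ± 0.33 and Dio3 at 0.34 ± 0.28, neither past the test. The 3 genes most like Meg3 over all 24 libraries were from the same stretch of chromosome 12, B830012L14Rik (r = 0.91), Mirg (0.89) and Rian (0.88).

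**Figure D5:**
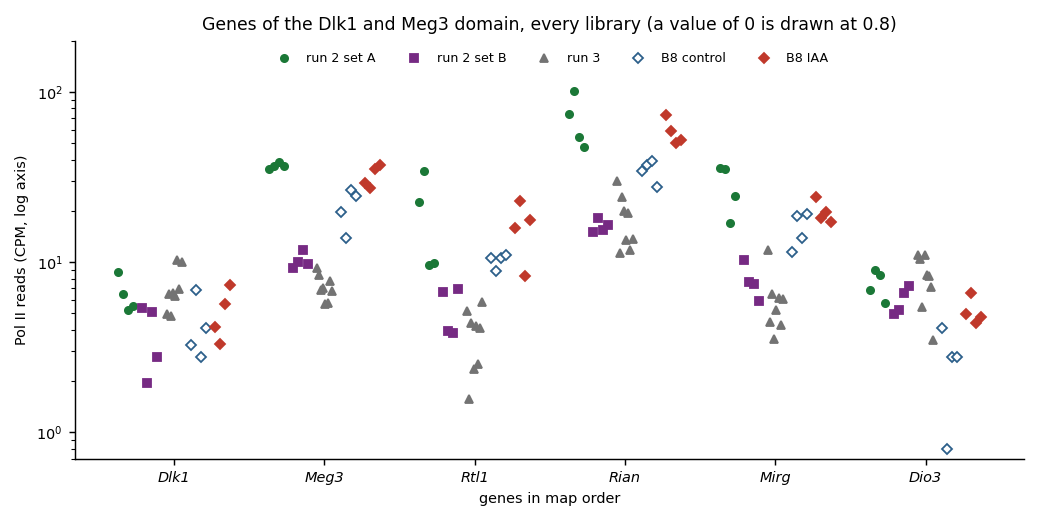
Pol II CPM (y axis, log scale) of 6 genes of the Dlk1 and Meg3 domain in map order (x axis, not to scale), for the 4 libraries of each set of run 2, the 8 of run 3, and the 4 B8 control and 4 B8 IAA libraries. Meg3, Rtl1, Rian and Mirg separate set A from set B, and Dlk1 and Dio3 do not.

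The B8 controls lay between the sets. Meg3 was at 19.6 and 13.8 CPM in the run 6 controls and 26.4 and 24.3 CPM in those of run 8, and with IAA at 29.1 and 27.1 CPM in run 6 and 35.4 and 37 CPM in run 8. Both IAA libraries were above both controls in each run, and the log2 change was 0.59 ± 0.18 (4 against 4, edgeR adjusted p = 0.0653). Rian was called higher in the same comparison, at 0.73 ± 0.16 (edgeR adjusted p = 0.0161), and Mirg was at 0.29 ± 0.25. In C64 the IAA change of Meg3 after 6 h was 0.10 ± 0.59, and the difference between the lines was not called, as given above.

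Of the 31 other domain genes tested with IAA in B8, where 6.23% of genes were called (2.62% higher and 3.61% lower), 1 was called higher, Rian, and 4 lower: Ppp1r9a (-0.90 ± 0.11), Cd81 (-0.95 ± 0.15), Zdbf2 (-0.67 ± 0.15) and Copg2 (-0.59 ± 0.14). Of 19 factors 2 were called, both lower, Tet1 (-0.71 ± 0.15) and Tet2 (-0.65 ± 0.15). Of 5 tested mESC markers 1 was called, Esrrb, which was lower (-0.51 ± 0.11), and its part in these values was not tested.

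Snrpn and Impact split between the sets in the other direction. As said above, p-values between the sets are not independent of the choice of this comparison. Snrpn was at 14.1 to 18.6 CPM in set A and 25.3 to 34.5 CPM in set B (log2 -0.79 ± 0.17, edgeR adjusted p = 0.00978), and Impact at 126 to 194 against 201 to 250 CPM (-0.48 ± 0.12, edgeR adjusted p = 0.0218). In both the 4 set A libraries were all below those of set B, as in 4.54% of genes. Without the IAA library of either set neither passed the test (Snrpn -0.69 in both fits, adjusted p 0.0527 and 0.0589, and Impact -0.47 in both, adjusted p 0.0962 and 0.0972), and Impact did not pass without either HS or either HS + IAA library (-0.54 to -0.40). Snhg14, the noncoding neighbour of Snrpn that carries its snoRNA clusters, moved with it between the sets (-0.87 ± 0.12, edgeR adjusted p = 0.000713). It did not do so with IAA in B8, where Snhg14 was called higher (0.88 ± 0.19, edgeR adjusted p = 0.0161) and Snrpn was at -0.57 ± 0.28. In run 3 Snrpn was lower in replicate 1 than in replicate 2 (-0.72 ± 0.21). This comparison was also added after values had been seen, so the Snrpn value is a description with no test. In it 33% of 16237 genes were called (14.4% lower). The Snrpn split was widest in RA, at 10.1 and 29.7 CPM. Without either RA library the Snrpn difference shrank to -0.45.

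Between these sets, 2% of all genes were called higher in set A and 3.84% lower. Of 45 other domain genes 4 were higher in set A, Rian, Mirg, Rtl1 and Sfmbt2, and 1 lower, Grb10 (-0.87 ± 0.11). Of 20 factors 2 were lower in set A, Dnmt3l, the cofactor that directs imprint methylation in the germ line (-0.98 ± 0.16), and Uhrf1, which brings the maintenance methyltransferase to replicating DNA (-0.52 ± 0.12). Of 9 tested markers of differentiated cells 1 was called, Gata6, an endoderm marker that was higher in set A (0.61 ± 0.16). Of 9 tested mESC markers 0 were called. Whether these values bear on those of the members was not tested.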

How the data were processed

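Pol II CUT&Tag gene counts of 24 libraries were used. The authors aligned reads to mm10 (GRCm38) with Bowtie2, kept PCR duplicates, subsampled reads within a run and counted fragments over whole genes with featureCounts (version 2.0.0 in the headers of 2 of 8 deposited count tables). The deposited counts carry no strand or parental assignment and are not normalized. From them, CPM was computed with edgeR on assigned reads scaled by TMM over the 24 libraries. Each comparison was fitted across all genes with edgeR 4.0.16 (R 4.3.3, limma 3.58.1): the quasi-likelihood test after TMM normalization, genes kept by filterByExpr (min.count 20), Benjamini-Hochberg adjustment and calls at 0.05. TMM cannot show a shift shared by all genes. Log2 fold changes are given ± SE. The study's figure legends call the libraries of a condition biological replicates. The script was tested on simulated data.

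The 7 tested members were fitted in every comparison, and the text gives values for some of them in each. Other genes were named by called direction and smallest p, with neighbours and most alike genes (Pearson r of log2 CPM with 0.5 added). Members and lists were chosen with earlier results of these data known. Comparisons between run 2 sets and run 3 replicates and the Peg10 to Sgce ratio were added after seeing values. Same-numbered run 3 libraries deviated together (correlations 0.38 to 0.602 over all pairs of groups). Run 2 libraries of the same set also deviated together (correlations 0.0915 to 0.462 over all pairs of groups). The main fits have no block for replicate number or set and so ignore these pairings. Fits with such blocks are given as alternatives. Alternatives were DESeq2 size factors, no filter, the likelihood-ratio test, DESeq2 1.42.0, blocks and leaving out each library. Limits from a count of 0 cover counting error only. Promoters are from RefSeq (GRCm38.p6).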

Additional observations from a re-analysis of the deposited data

How the results depend on the processing

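Of 1391 recomputed changes of the members, 1219 kept their direction and side of the threshold, 142 changed sign while past it in neither, 18 came to pass it, 12 no longer passed and 0 reversed. With the replicate block, 1 member was called after 16 h of IAA (Peg10) and 2 in RA (Peg10 and Plagl1). Over all contexts, with replicate number as block in run 3 and the set in run 2, again 1 was called. The likelihood-ratio test called 1 member with IAA in B8 (Meg3, adjusted p = 0.0273). The run 2 set as a block, whose numbers share no stated origin (correlations 0.0915 to 0.462), called 1 in HS + IAA against IAA (Plagl1, adjusted p = 0.0276) and 1 against HS (Peg10, adjusted p = 0.000332). Between run 3 replicates, DESeq2 size factors, no filter and the likelihood-ratio test each called 2, where 5333, 5586 and 5769 genes were called. Leaving out 1 library gave 0 to 2 members with HS and with HS + IAA against IAA, 0 to 1 for B8 against C64 with IAA, for run 3 against run 2 and for B8 run 8 against run 6, 1 to 3 between the run 2 sets and 0 to 3 between run 3 replicates. The libraries concerned were set A IAA (Meg3 then called between the lines), run 3 control a (Meg3), B8 run 6 control a (Impact), the HS and HS + IAA libraries of set B (Meg3 and Plagl1, Impact and Plagl1), both run 2 controls, both run 2 IAA, both run 3 IAA and both RA libraries. The cause was not tested. Leaving out 1 library gave calls for 228 to 1389 genes between the run 2 sets and for 3720 to 5377 between run 3 replicates. Where a group held 2 libraries, such a fit left a single library in it, so those counts say little about the members. Over all genes, a block for replicate number moved the calls from 0 to 353 after 16 h and from 3 to 1863 in RA. It moved them from 0 to 298 in RA + IAA against IAA and from 0 to 171 against RA. With IAA in B8 it moved them from 790 to 431. Over all contexts, a block by replicate number in run 3 and by set in run 2 moved them from 144 to 686. The set block moved them from 7 to 193 after 6 h, from 494 to 1373 with HS, from 231 to 1609 in HS + IAA against IAA and from 0 to 108 against HS. Without the low-count filter they were 159 with HS, 955 in HS + IAA against IAA, 43 in RA, 68 in RA + IAA against IAA, 1 after 16 h, 32 rather than 14 for the difference between the lines and 1574 rather than 947 between the sets. The likelihood-ratio test gave 29 after 6 h, 1220 in B8, 792 and 765 with HS, 132 in RA, 256 over all contexts, 51 for the difference, 1014 for B8 against C64 with IAA, 3309 rather than 1896 between B8 runs and 1536 between the sets. DESeq2 gave 22 after 6 h, 432 in HS + IAA against IAA, 78 in RA, 318 over all contexts, 54 for the difference and 1072 between B8 runs. B8 against C64 controls went from 0 to 535 and 785 with run 6 or run 8 alone, and with IAA from 502 to 2446 and 1439. With IAA in B8 there were 17 and 2753 in runs 6 and 8 alone and 38 without the run block. Depth limits B8 run 6 most, where Peg10 had 12 to 36 reads.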
